A study of Mus musculus and Rattus norvegicus with 53 samples.

Results

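Schwann cells of the mouse sciatic nerve were compared between the bridge, the new tissue that joins the cut ends of a transected nerve, and the distal stump, the degenerating nerve beyond the cut, at day 4 after transection. The comparison took all 6 single-nerve libraries of that day, 3 from the bridge and 3 from the distal stump, out of 35 single-nerve libraries and 53 libraries in the whole series. The labels tie each bridge library to a distal library of the same mouse (mice 18, 19 and 20), and values below are always given in that order of mice. All cells carried tdTomato (the genotype is given as tdTomato+) and were sorted on it: per the study's methods a Rosa26 tdTomato reporter was crossed to a Cre strain with a promoter active in the neural crest, so that Cre switched the reporter on for good in Schwann cells of young adult mice of both sexes, so the sorted cells are those with a history of that Cre rather than those expressing a Schwann cell gene at day 4. No uninjured control belongs to the comparison itself, and 5 intact-nerve libraries are used only as a reference level. Each library was made by Smart-seq2, a full-length cDNA method for small amounts of RNA, from the cells of 1 nerve, and of 24016 genes listed 10178 had at least 100 reads in at least 3 of the 6 libraries and were tested.

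After nerve injury, Schwann cells give up myelination, proliferate and take on a repair state in which they clear debris and secrete trophic factors for regrowing axons. In the distal stump they stay within the basal lamina tubes of the former fibres. In the bridge they migrate as cords through a collagen-rich, poorly perfused tissue with many fibroblasts and macrophages, along blood vessels that grow in answer to hypoxia. Programmes that could differ between the sites therefore include repair genes, trophic factors, guidance cues, energy metabolism, proliferation and mesenchymal genes.

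Gene counts per library ran from 10167926 to 18025247, with 12597 to 14293 genes detected. No molecular identifiers were used, so reads are not independent molecules and any counting limit covers counting error only. All 6 libraries held Xist (82.3 to 369.8 CPM, the gene's share of all gene counts, scaled by trimmed mean of M values) and the sum of 4 Y-linked genes did not exceed 0.084 CPM, so by these genes the 6 libraries came from females.

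The bridge and distal libraries of mouse 19 were nearly the same. Their log2 CPM correlated at r = 0.996 across 14208 genes, whereas the other 594 pairs of single-nerve libraries had r between 0.494 and 0.936 (a description across genes, which are not replicates). Their counts differed by a chi-square per degree of freedom of 4.00, above the value that counting error alone gives, against 48.6 for the next closest pair of single-nerve libraries and 121 to 330.0 for the other 14 pairs of the 6 day 4 libraries. No gene stood at 20 CPM or more in 1 library of mouse 19 and under 1 CPM in the other; between the libraries of mouse 20 there were 502 such genes and between those of mouse 18 33. The standard deviation of the log2 ratio of bridge to distal stump over the genes tested was 1.07 in mouse 18, 0.21 in mouse 19 and 2.27 in mouse 20. Over 2-fold differences were held by 2416, 39 and 5454 genes, in that order of mice. Why these libraries are so alike was not tested. The test over all genes is given with and without this mouse, a choice made after its libraries had been compared, and counts over mice 18 and 20 are descriptions without a test. Ratios per mouse are log2 of the CPM ratio with counts under 3 raised to 3.

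**Figure D1:**
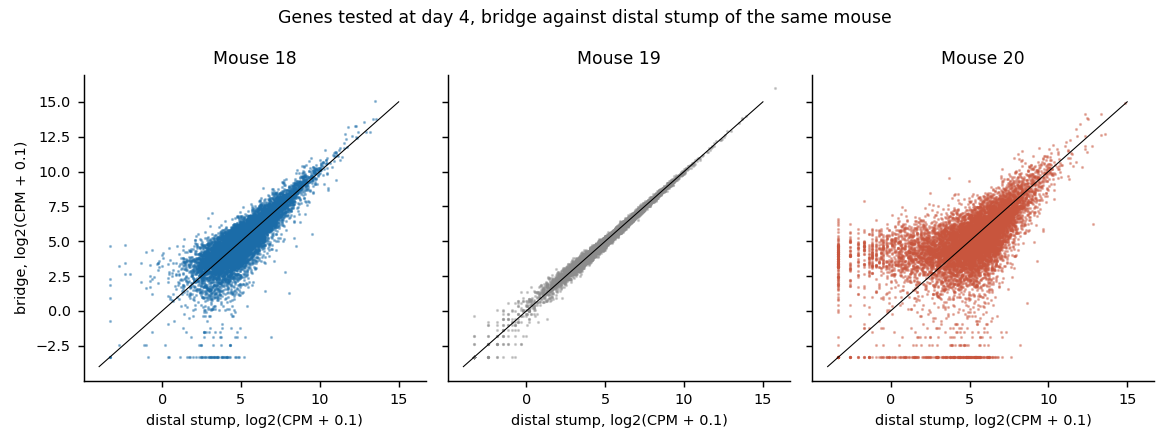
Each point is 1 of the 10178 genes tested, with its level in the distal stump (x axis) and the bridge (y axis) of the same mouse, both as log2(CPM + 0.1), and the line marks equality. The points of mouse 19 lie on the line (SD of the log2 ratio 0.21), those of mouse 18 spread around it (1.07) and those of mouse 20 spread most (2.27).

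No gene passed an adjusted p of 0.05 between bridge and distal stump in edgeR's quasi-likelihood test over all 35 single-nerve libraries (0 of 10178 genes, 0%; smallest adjusted p 1.00). At an unadjusted p under 0.05 the test gave 86 genes (0.845%), 44 higher and 42 lower in the bridge. DESeq2 in the same fit also called 0 genes, with 144 at an unadjusted p under 0.05, and the mouse as a block gave 0 calls, with 187 at an unadjusted p under 0.05 in the 6 libraries alone. Without mouse 19 edgeR called 0 genes and gave 277 at an unadjusted p under 0.05 (2.72%), 113 higher and 164 lower, whereas DESeq2 called 25 genes, 23 lower and 2 higher in the bridge. In 19 of those 25 genes at least 1 of the 4 remaining libraries had no read. In edgeR both shares at an unadjusted p under 0.05 (0.845% and 2.72%) lie below the 0.05 that evenly spread p-values would give. An unadjusted p quoted below therefore does not set a gene apart. None of the genes named below passed the edgeR test, and the text gives their levels rather than a call.

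In mice 18 and 20, 481 genes (4.73% of those tested) were over 2-fold higher in the bridge in both mice and 590 (5.8%) over 2-fold lower in both, and 485 were past 2-fold in both but in opposite directions. Scaled by total gene counts in place of trimmed means these became 341 higher and 770 lower, with the median ratio of all genes in mouse 18 at -0.15 rather than 0.03. Across genes the ratios of the 2 mice correlated weakly (Pearson 0.17, Spearman 0.21, genes sharing 4 libraries). All 3 bridge libraries lay above all 3 distal libraries for 204 genes (2%) and below them for 283 (2.78%), in part by small margins, since mouse 19 contributes 1 library of near-equal values to each group. Counts per gene list are read against these shares, and list members named as past 2-fold in mice 18 and 20 were chosen by that, so after their values were seen.

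**Figure D2:**
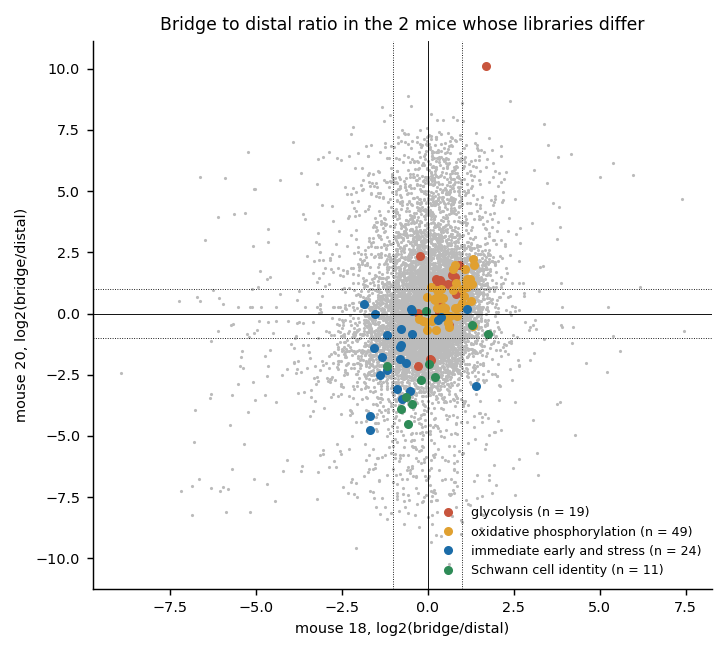
Each grey point is 1 of the 10178 genes tested, with its log2 ratio of bridge to distal stump in mouse 18 (x axis) and mouse 20 (y axis), and dotted lines mark 2-fold. Coloured points are 4 gene lists: oxidative phosphorylation lies to the upper right of the centre, most of immediate early and stress to the lower left, and Schwann cell identity is mainly low in mouse 20.

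The Schwann cell programme was lowest in the bridge of mouse 20. The summed level of 14 Schwann cell identity genes was 1515, 1579.6 and 319 CPM in the bridge and 1719, 1609 and 1908 CPM in the distal stump, against 1650.0 to 7633 CPM in the 5 intact nerves. The bridge of mouse 20 stood apart from the other 5 libraries, and all 3 bridge sums lay below the 3 distal sums, by small margins in mice 18 and 19. Sox10, the transcription factor that defines the lineage, was 29.2, 44.9 and 7.73 CPM in the bridge and 65.5, 37.6 and 34.6 CPM in the distal stump. Its level was over 2-fold lower in the bridge in mice 18 and 20 alike, and the bridge and distal values overlapped through mouse 19 (fitted log2 fold change -0.75 ± 0.73 (SE), 95% interval -2.24 to 0.73; -1.47 ± 0.91 without mouse 19). Ngfr, the p75 neurotrophin receptor of immature and repair Schwann cells, was 380.1, 442 and 53.3 CPM in the bridge and 652, 446 and 796 CPM in the distal stump, with ratios of -0.78 and -3.90 in mice 18 and 20. Fabp7 and Gfra3, also on the list, were at 0 in all 3 bridge libraries and at most at 0.42 CPM in a distal one. Of the 11 members tested, 0 were over 2-fold higher and 1 over 2-fold lower in the bridge in mice 18 and 20 alike, with list medians of -0.21, -0.04 and -2.61 on the log2 scale in the 3 mice, and none passed the test.

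Other cell types' transcripts were abundant in every library, and their balance differed in the same library. The summed level of 18 macrophage markers, none of them at 0 in any library, was 19041, 14617 and 9943 CPM in the bridge and 17306, 14583 and 15369 CPM in the distal stump. In the intact nerves it was 381 to 1737 CPM. The 18 markers did not move together: 5 (27.8%) were higher and 6 (33.3%) lower in the bridge in mice 18 and 20 alike. Among all genes tested those shares were 29.9% and 28.2%. Lyz2, a macrophage lysozyme, was 7386, 5139 and 3655 against 9479, 5308 and 6951 CPM in bridge and distal stump. C1qa, a complement component, went the other way with 1280, 1049 and 781 against 513, 986 and 646 CPM. The summed level of 12 fibroblast markers, none at 0, was 33435, 24050.2 and 63348 CPM in the bridge and 26982, 25149.6 and 32312 CPM in the distal stump, highest where the Schwann cell sum was lowest. Intact nerves had 27977 to 34649 CPM. These markers did not move together either: 5 (41.7%) were higher and 1 (8.33%) lower in mice 18 and 20 alike, with medians of -0.02, -0.05 and 0.68. The 1 lower was Pi16, with 46.3, 431 and 303 against 724, 430.5 and 709 CPM. Endothelial genes (11, none at 0) summed to 395, 535 and 522 against 454, 529.9 and 646 CPM, mural cell genes (8, none at 0) to 703, 343 and 369 against 543, 357 and 486 CPM, and perineurial genes (7, of which 0 to 3 were at 0) to 318, 189.6 and 200.3 against 305, 198 and 387 CPM. Erythroid and muscle genes were at most at 10.7 CPM in sum, and neutrophil, lymphocyte, mast cell and adipocyte genes at most at 97.3 CPM. In sorted bulk samples fewer cells of a type and less RNA per cell cannot be told apart, and the part of these transcripts in the differences below was not tested.

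**Figure D3:**
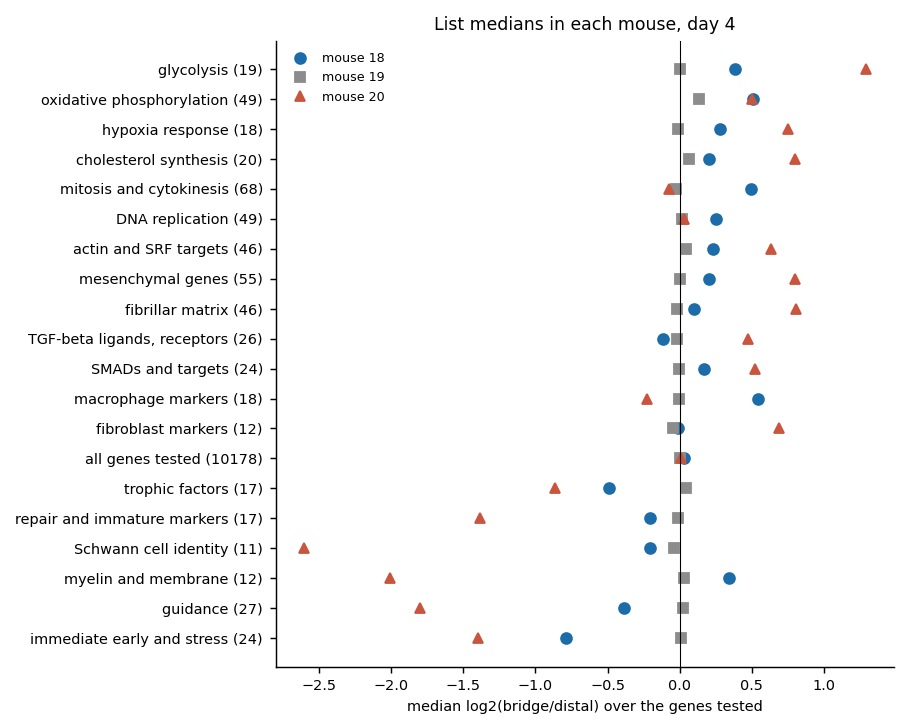
For 19 gene lists and for all genes tested (number of genes tested in brackets), points give the median log2 ratio of bridge to distal stump in mouse 18 (circles), mouse 19 (squares) and mouse 20 (triangles). The squares lie near 0 throughout, while immediate early and stress genes are negative (-0.79 and -1.40) and glycolysis genes positive (0.38 and 1.29) in mice 18 and 20.

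Among trophic factors more were lower than higher in the bridge of mice 18 and 20. The plainest was Gdnf, the glial cell line-derived neurotrophic factor that Schwann cells make for motor axons after injury. It was 0, 21.04 and 0 CPM in the bridge and 14.01, 12.7 and 35.9 CPM in the distal stump. No read was found in the bridge of mice 18 and 20, which against a floor of 3 reads per library makes it at least 55.7-fold lower there in mouse 18 and at least 142-fold lower in mouse 20, while the bridge of mouse 19 was above its distal stump. Over all 6 libraries the edgeR p was 0.4 unadjusted and 1.00 adjusted, and without mouse 19 0.002 and 1.00, so in edgeR the call is lost to the correction over all genes. DESeq2 without mouse 19 did call it lower (adjusted p 0.0037), so the call depended on the method. Gas6, the ligand of TAM receptors, was 216, 395 and 179 against 439, 390.1 and 581 CPM. Clcf1, a cytokine of the CNTF family, was 3.86, 15.8 and 1.68 against 8.57, 15.3 and 27.5 CPM, Fgf5 7.13, 19.7 and 7.57 against 19.9, 23.2 and 129.6 CPM, and Ucn2, a urocortin peptide, 7.63, 48.9 and 3.11 against 49.3, 51.2 and 20.1 CPM. In these 4 genes the bridge was the lower region in mice 18 and 20, and the groups overlapped except for Fgf5, whose 3 bridge values all lay below the distal ones. Igf1, the most abundant factor on the list and also a macrophage and fibroblast product, went the other way with 1059, 521 and 1145 against 647, 539.8 and 530.1 CPM. Of 17 factors tested, 0 were over 2-fold higher and 5 over 2-fold lower in the bridge in mice 18 and 20 alike, against 4.73% and 5.8% of all genes. The medians were -0.49, 0.04 and -0.86 (under the stricter filter of the study's methods the mouse 18 median turned to 0.49, with counts of 0 and 1 past 2-fold). By any margin 5 (29.4%) were higher and 8 (47.1%) lower in both, against 29.9% and 28.2% of all genes. The median fitted log2 fold change of the list over all 3 mice was 0.06.

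Repair and immature markers leaned towards the distal stump in mice 18 and 20, with exceptions. Shh, a hedgehog ligand induced in injured Schwann cells, was 19.95, 33.3 and 1.93 CPM in the bridge and 41.99, 41.9 and 99.8 CPM in the distal stump, and Gli1, a transcriptional target of hedgehog signalling, 4.44, 19.9 and 7.23 against 17.3, 16.6 and 33.6 CPM. Atf3, an injury-induced bZIP factor, was 66.8, 285 and 30.3 against 215, 279.7 and 552 CPM, and Mcam, an adhesion molecule, 79.4, 171 and 32.6 against 159, 167 and 227 CPM. All 4 were over 2-fold lower in the bridge in mice 18 and 20, although in mouse 19 they were much alike in both regions. Ncam1, the neural cell adhesion molecule, was instead 266, 37.7 and 355 against 107, 30.8 and 5.51 CPM, and Gli3, a hedgehog effector that also acts as a repressor, 29.5, 2.13 and 18.3 against 9.21, 3.61 and 1.05 CPM, both higher in the bridge in mice 18 and 20. Jun, the AP-1 factor that drives the repair state, was 247, 473 and 224 against 433, 439.5 and 583 CPM (fitted log2 fold change -0.62 ± 0.82 (SE), 95% interval -2.30 to 1.05; -1.11 ± 1.02 without mouse 19). Sox2, which opposes myelination and is linked to cell sorting into cords, was 6.37, 24.9 and 0.5 against 5.10, 28.7 and 42.2 CPM, its ratios being 0.32 in mouse 18 and -6.39 in mouse 20. Egr2, the master regulator of myelination, was 67.2, 25.01 and 64.3 against 40.3, 23.8 and 3.56 CPM, higher in the bridge in mice 18 and 20 alike. Pmp22, a peripheral myelin protein, was 455, 352 and 499 against 327, 372 and 305 CPM, higher in the bridge of mice 18 and 20. Olig1 did not reach the count minimum and was 0, 3.88 and 0 against 0.49, 2.84 and 0 CPM. Of 17 repair and immature markers tested, 1 were over 2-fold higher and 3 over 2-fold lower in the bridge in mice 18 and 20 alike. The medians were -0.21, -0.01 and -1.38. By any margin 4 (23.5%) were higher and 10 (58.8%) lower in both, against 29.9% and 28.2% of all genes. Of 12 hedgehog genes, those over 2-fold higher and lower in both numbered 1 and 2. The 12 myelin and membrane genes tested gave 0 and 0, with medians of 0.34, 0.03 and -2.01, and the 13 myelin regulators 0 and 1.

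Guidance genes leaned towards the distal stump in mice 18 and 20. Of 27 tested semaphorins, plexins, netrin receptors and relatives, 0 were over 2-fold higher and 5 over 2-fold lower in the bridge in mice 18 and 20 alike (background 4.73% and 5.8%), with medians of -0.39, 0.02 and -1.80 (counts of 0 and 0 under the stricter filter). The class 4 semaphorins Sema4b (5.28, 43.4 and 5.63 against 14.7, 35.5 and 27.3 CPM), Sema4c (2.93, 9.79 and 3.61 against 7.69, 9.12 and 22.5 CPM) and Sema4f (21.97, 32.3 and 0.084 against 61.00, 29.9 and 14.9 CPM), transmembrane ligands for plexins, were among the 5, as was Plxnb1, a plexin receptor (13.1, 13.2 and 0.42 against 33.4, 13.5 and 4.11 CPM). Unc5b, a netrin receptor, was 3.61, 12.3 and 0 against 9.65, 12.1 and 27.8 CPM, with no read in the bridge of mouse 20. Nrp1, the most abundant member and a co-receptor for class 3 semaphorins and VEGF, was 497, 425 and 445 against 423, 442 and 459 CPM and differed little in any mouse. In the ephrin system, Efnb2, a ligand found on vessels and fibroblasts, was 22.9, 9.89 and 37.5 against 38.5, 8.78 and 108 CPM, Ephb2, the receptor through which fibroblast contact sorts Schwann cells, 17.9, 10.4 and 9.08 against 10.6, 9.04 and 11.5 CPM, and Efnb1 79.2, 86.5 and 117 against 47.04, 80.1 and 76.6 CPM. Among 9 ephrin and Eph genes tested 0 were over 2-fold higher and 1 (Epha5, 20.2, 55.8 and 0.5 against 49.4, 61.6 and 9.20 CPM) over 2-fold lower in both. Cdh2, N-cadherin, which holds Schwann cells together, was 23.2, 32.3 and 33.03 against 20.5, 37.8 and 2.86 CPM, and Cdh1, E-cadherin, did not reach the count minimum with 0, 0 and 1.93 against 0, 0 and 0 CPM.

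**Figure D4:**
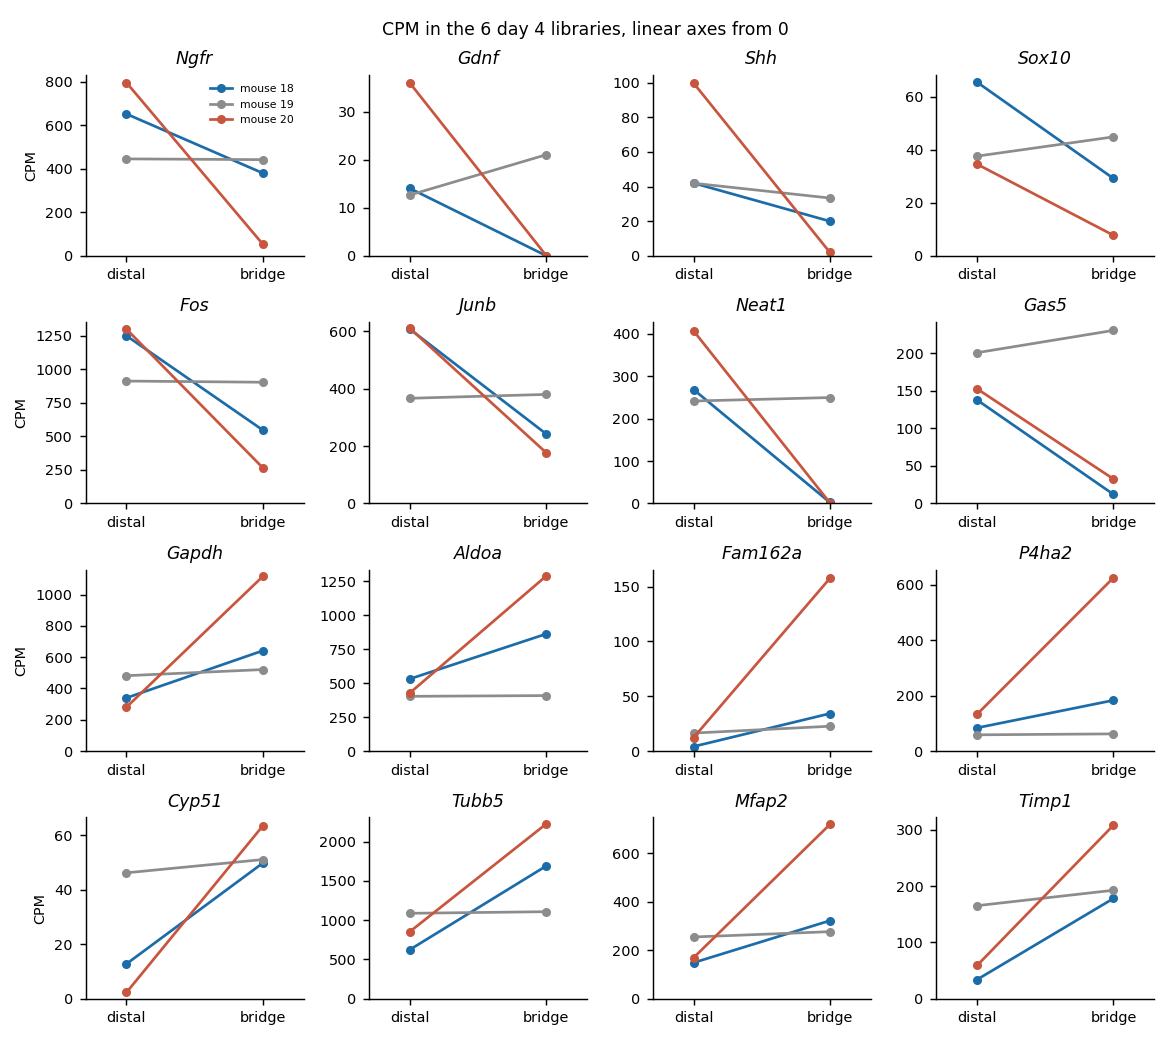
Points give CPM of 16 genes in the distal stump (left) and bridge (right) of each mouse, on linear axes from 0, and lines join the 2 regions of 1 mouse. In mice 18 and 20 the first 8 genes are lower and the last 8 higher in the bridge, whereas the grey line of mouse 19 is nearly flat in most panels.

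Immediate early genes, which respond within minutes to stimulation and to stress of the cells, were mostly lower in the bridge of mice 18 and 20. Of 24 tested, 0 were over 2-fold higher and 6 over 2-fold lower in the bridge in mice 18 and 20 alike, against 4.73% and 5.8% of all genes. By any margin 1 (4.17%) was higher and 17 (70.8%) lower in both, against 29.9% and 28.2% of all genes. The list medians were -0.79, 0.01 and -1.40. Fos, an AP-1 subunit, was 546, 903 and 265 CPM in the bridge and 1249, 912 and 1298 CPM in the distal stump, so that mice 18 and 20 were over 2-fold lower in the bridge while mouse 19 had near-equal levels. Its relative Fosb (9.47, 77.7 and 2.77 against 30.2, 66.7 and 74.4 CPM) and its partner Junb (242, 380.1 and 176 against 607, 367 and 610.1 CPM) had the same order in mice 18 and 20. Dusp1, a MAP kinase phosphatase, was 219, 309 and 349.8 against 640.2, 320.4 and 936 CPM and Zfp36, an mRNA-destabilising zinc finger protein, 99.4, 312 and 48.3 against 261, 319.6 and 274 CPM. Egr1, another immediate early factor, was 143, 305 and 89.5 against 247, 322 and 325 CPM, lower by ratios of -0.79 and -1.86. Without mouse 19, 6 of the 24 were lower at an unadjusted edgeR p under 0.05 (Fos 0.03, Fosb 0.0096), beside 2.72% of all genes in either direction, and none at the adjusted threshold. The heat shock members of the list were of opposite sign in mice 18 and 20: Hspa8, the most abundant, was 3009.7, 1752 and 2408 against 2423, 1833 and 2856 CPM and Hsp90aa1 350.3, 778 and 526 against 267, 760.1 and 579 CPM. The list medians of mice 18 and 20 stayed negative with DESeq2 size factors and with total counts as the scale.

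Genes of glycolysis were higher in the bridge of mice 18 and 20 as a group, by modest amounts. Of 19 tested enzymes and transporters, 13 (68.4%) were higher in both and 1 was lower in both, against 29.9% and 28.2% of all genes, with medians of 0.38, 0.00 and 1.29. Over 2-fold in both, the count was 1 higher and 0 lower. Gapdh, glyceraldehyde-3-phosphate dehydrogenase, was 642, 521 and 1116 CPM in the bridge and 339.9, 482 and 281 CPM in the distal stump; the highest 2 values are bridge values, and all 3 bridge libraries exceeded all 3 distal ones. Aldoa, aldolase A, was 864, 409 and 1292 against 532, 404 and 429 CPM, and Pgam1, phosphoglycerate mutase, 592, 232 and 764 against 344, 238 and 269.8 CPM. Pkm, pyruvate kinase, was 1301, 413 and 1939 against 750.1, 416 and 792 CPM and Ldha, which turns pyruvate into lactate, 988, 550.5 and 2022 against 821, 549 and 819.6 CPM. Slc16a3, the lactate exporter MCT4 that hypoxia induces, was 64.98, 6.79 and 234 against 20.2, 6.02 and 0.21 CPM, which is nearly absent from the distal stump of mouse 20. The unadjusted edgeR p over all 6 libraries was 0.024 for Gapdh, 0.021 for Aldoa, 0.022 for Pgam1 and 0.043 for Slc16a3, each with an adjusted p of 1.00, and without mouse 19 it was 0.0091, 0.009, 0.01 and 0.074. Slc2a1, the glucose transporter GLUT1, was 138, 63.5 and 139 against 105, 65.9 and 113 CPM, slightly higher in the bridge of mice 18 and 20, and Hk2, hexokinase 2, 58.1, 61.7 and 50.9 against 67.9, 64.6 and 9.90 CPM, of opposite sign in the 2 mice.

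Genes of the hypoxia response had positive medians in mice 18 and 20 as well. Of 18 tested, 3 were over 2-fold higher and 0 over 2-fold lower in the bridge in mice 18 and 20 alike, with medians of 0.28, -0.01 and 0.75 (the mouse 18 median was -0.02 when genes with fewer reads were kept by filterByExpr, edgeR's own filter). With total counts as the scale the counts were 1 and 1, and with filterByExpr 3 and 2. The 3 were Pdk1, pyruvate dehydrogenase kinase 1 (62.2, 0.097 and 63.2 against 21.8, 0.34 and 1.12 CPM), P4ha2, a collagen prolyl hydroxylase subunit (183, 62.1 and 625 against 83.8, 58.7 and 133 CPM), and Hilpda, a lipid droplet protein (22.7, 9.60 and 39.5 against 10.9, 7.23 and 6.07 CPM). P4ha2 had a fitted log2 fold change of 1.66 ± 0.68 (SE) with a 95% interval 0.27 to 3.05 and an unadjusted edgeR p of 0.021 (1.89 ± 0.75 without mouse 19, unadjusted p 0.018). Hif1a itself, the oxygen-regulated factor, was 483, 258 and 589 against 404, 298 and 315 CPM. Outside the list, and chosen after their values were seen, 3 more genes known as hypoxia targets had the same order. Fam162a, a HIF-1-responsive mitochondrial protein gene on chr16:36043930-36071601 (mm9), was 34.3, 22.7 and 158 against 4.16, 16.4 and 12.3 CPM, with an unadjusted edgeR p of 0.0097. Ndufa4l2, a respiratory chain subunit induced by HIF-1, was 25.7, 9.79 and 90.2 against 2.45, 8.35 and 0.42 CPM, and Mif, a macrophage migration inhibitory factor, 33.8, 74.2 and 246 against 11.2, 58.9 and 19.5 CPM. Leaving out mouse 19 gave unadjusted p of 0.0081, 0.0062 and 0.0082 for the 3 in edgeR and an adjusted p of 0.049 for Ndufa4l2 in DESeq2.

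To show what the hypoxia response element looks like beside genes with this order in mice 18 and 20, 4 promoter windows with several matches were picked for that, from 250 bases before to 50 after a transcription start (RefSeq, GRCm38.p6), 5′ to 3′ on the gene's strand, with the core of the hypoxia response element (ACGTG or GCGTG, on either strand; overlapping matches run together) in capitals. They are the 2 abundant enzymes of glycolysis Gapdh and Ldha, P4ha2 from the hypoxia list, and Fam162a:
Gapdh (chr6:125165724-125166023, minus strand): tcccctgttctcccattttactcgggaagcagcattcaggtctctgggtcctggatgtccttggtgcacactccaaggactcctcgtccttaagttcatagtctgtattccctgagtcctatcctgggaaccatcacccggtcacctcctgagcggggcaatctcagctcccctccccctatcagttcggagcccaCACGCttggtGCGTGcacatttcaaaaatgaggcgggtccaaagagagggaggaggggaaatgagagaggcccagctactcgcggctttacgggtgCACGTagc
Ldha (chr7:46845554-46845853, plus strand): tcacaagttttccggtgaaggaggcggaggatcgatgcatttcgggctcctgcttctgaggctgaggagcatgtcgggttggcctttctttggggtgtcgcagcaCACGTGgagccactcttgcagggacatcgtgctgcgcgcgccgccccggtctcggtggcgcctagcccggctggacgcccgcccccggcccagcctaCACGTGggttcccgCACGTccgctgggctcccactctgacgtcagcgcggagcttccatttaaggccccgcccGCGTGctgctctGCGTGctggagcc
P4ha2 (chr11:54100674-54100973, plus strand): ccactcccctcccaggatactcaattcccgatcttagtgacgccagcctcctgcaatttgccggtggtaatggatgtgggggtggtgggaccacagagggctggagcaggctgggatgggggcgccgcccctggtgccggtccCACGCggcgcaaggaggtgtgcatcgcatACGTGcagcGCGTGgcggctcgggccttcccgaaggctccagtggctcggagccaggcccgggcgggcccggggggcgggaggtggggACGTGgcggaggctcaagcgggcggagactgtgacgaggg
Fam162a (chr16:36071512-36071811, minus strand): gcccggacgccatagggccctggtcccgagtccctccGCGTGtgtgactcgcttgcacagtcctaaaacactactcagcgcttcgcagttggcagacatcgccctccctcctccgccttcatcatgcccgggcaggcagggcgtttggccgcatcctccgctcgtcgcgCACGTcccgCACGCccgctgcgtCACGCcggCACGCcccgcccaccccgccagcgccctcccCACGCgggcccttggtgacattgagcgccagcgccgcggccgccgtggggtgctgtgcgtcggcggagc

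The windows held 3, 7, 4 and 6 matches. Windows of other genes named here held fewer: the second start of Ldha 2, the 3 starts of Aldoa 0, 1 and 1, and Mif 1. Such a short motif is common: 14380 of 32851 promoter windows of the table (43.8%) and 68.9% of the 7735 tested genes with a promoter held at least 1, as did 18 of 21 glycolysis genes and all 18 hypoxia response genes found there. The letters describe the promoters and say nothing on binding.

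Nuclear-encoded subunits of oxidative phosphorylation had positive medians in the bridge of all 3 mice. Of 49 tested, 8 were over 2-fold higher and 0 over 2-fold lower in the bridge in mice 18 and 20 alike, with medians of 0.50, 0.13 and 0.50. By any margin 33 (67.3%) were higher and 4 (8.16%) lower in both, against 29.9% and 28.2% of all genes. With total counts as the scale the counts past 2-fold were 4 and 0. Atp5d, a subunit of ATP synthase, was 112, 179 and 175 CPM in the bridge and 44.8, 155 and 37.4 CPM in the distal stump, and Cox4i1, of cytochrome c oxidase, 158, 551 and 323 against 64.9, 521 and 138 CPM. Ndufa8, of complex I, was 59.03, 147 and 138 against 23.4, 119 and 35.2 CPM. For these 3 genes the distal stump of mouse 19 lay among the bridge values, so the groups overlapped. The most abundant subunits, Atp5b (787, 462 and 786 against 723, 499 and 968 CPM) and Atp5a1 (571, 335 and 438 against 378, 321 and 573 CPM), were lower in the bridge of mouse 20. Transcripts of these subunits are short (median exonic length 1572 bases against 3853 over the genes tested), and short transcripts as a class had positive median ratios in mice 18 and 20. The median log2 ratio was 0.22 and 0.27 among the shortest genes (2891 bases at most; all genes split evenly into short, middle and long) and -0.15 and -0.26 among the longest (5002 bases at least). Glycolysis genes had a median length of 3723 bases. The part of transcript length was not tested.

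Cholesterol synthesis had 3 members over 2-fold higher in the bridge in mice 18 and 20 alike and none lower. Cyp51, lanosterol demethylase, was 49.8, 51.1 and 63.5 CPM in the bridge and 12.8, 46.2 and 2.30 CPM in the distal stump, with all 3 bridge libraries above all 3 distal ones. Ebp, a sterol isomerase, was 80.7, 41.7 and 128 against 35.03, 33.5 and 61.8 CPM, with the bridge of mouse 20 highest. The list of 20 had medians of 0.21, 0.06 and 0.80, and Fdft1, squalene synthase, was 78.1, 92.2 and 61.8 against 82.6, 90.6 and 106 CPM. Fatty acid synthesis gave 0 and 0 of 13, with Scd2, a desaturase, at 341, 331 and 306 against 338, 349.6 and 401 CPM.

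Mitosis and DNA replication genes had more members higher than lower in the bridge of mice 18 and 20 alike, without a clear shift in medians. Of 68 mitosis and cytokinesis genes, 7 were over 2-fold higher and 1 over 2-fold lower in the bridge in mice 18 and 20 alike, against 4.73% and 5.8% of all genes. The list median was 0.49 in mouse 18 but -0.08 in mouse 20, and with total counts as the scale the counts were 3 and 3. By any margin 29 (42.6%) were higher and 12 (17.6%) lower in both, against 29.9% and 28.2% of all genes. Ccnb1, cyclin B1, was 194, 70.3 and 226 against 92.5, 79.8 and 93.99 CPM, Ube2c, an anaphase-promoting ubiquitin enzyme, 63.2, 41.4 and 89.2 against 23.3, 38.4 and 12.6 CPM, and Cks1b, a cyclin-dependent kinase subunit, 59.2, 64.6 and 148 against 15.5, 63.7 and 18.5 CPM. Top2a, topoisomerase II, was 207, 169 and 139 against 107, 185 and 117 CPM, and Mki67, which encodes the Ki67 antigen, 68.2, 114 and 59.3 against 125, 114 and 170.3 CPM, lower in the bridge of mice 18 and 20. Ccnd1, cyclin D1, which dedifferentiating Schwann cells induce, was 369, 487 and 129.9 against 374, 492 and 452 CPM, much alike in both regions of mice 18 and 19 and lower in the bridge of mouse 20. Of 49 DNA replication genes 4 were over 2-fold higher and 1 lower in both, of 20 cell cycle brakes 1 and 0, and of 38 ribosome biogenesis and Myc network genes 2 and 1. By any margin 17 of the DNA replication genes (34.7%) were higher and 8 (16.3%) lower in both, with medians of 0.25, 0.01 and 0.03. For the brakes these counts were 7 and 6, and for the ribosome and Myc list 10 and 10. Myc was 37.4, 20.6 and 46.3 against 29.2, 19.6 and 84.2 CPM, while Srm, spermidine synthase and a Myc target chosen after its values were seen, was 149, 105 and 250.5 against 90.9, 91.7 and 39.7 CPM (unadjusted edgeR p 0.014, and 0.0083 without mouse 19). Tubb5, a beta tubulin chosen likewise, was 1691, 1108 and 2227 against 626, 1088 and 855 CPM, with an unadjusted p of 0.033 in edgeR and 0.013 without mouse 19.

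Mesenchymal and matrix genes were mostly higher in the bridge of mouse 20 and close to even in mouse 18. Of 55 mesenchymal genes, 4 were over 2-fold higher and 2 over 2-fold lower in the bridge in mice 18 and 20 alike, with medians of 0.20, 0.00 and 0.80 (counts of 2 and 3 with total counts as the scale). Of 46 fibrillar matrix genes the counts were 2 and 1, with medians of 0.10, -0.02 and 0.81 (counts of 0 and 3 and mouse 18 at -0.08 with total counts as the scale). By any margin 26 mesenchymal genes (47.3%) were higher and 9 (16.4%) lower in mice 18 and 20 alike. For fibrillar matrix genes these were 21 (45.7%) and 8 (17.4%), and for all genes 29.9% and 28.2%. Mfap2, a microfibril glycoprotein on chr4:140566333-140571899 (mm9), had the smallest p of the test over all genes, and was chosen after its values were seen: it was 322, 276 and 718 CPM in the bridge and 149, 254 and 169 CPM in the distal stump (fitted log2 fold change 1.20 ± 0.43 (SE), 95% interval 0.33 to 2.08; unadjusted p 0.0086 and adjusted p 1.00 in edgeR; 1.70 ± 0.51 without mouse 19, unadjusted p 0.0027). Col1a1, a chain of type I collagen, was 9842, 2701 and 18315 against 4764, 2949.9 and 5239 CPM. Col3a1, of type III collagen, was 7206, 7689 and 17872 against 7679, 8039.8 and 10376 CPM. Both were highest by far in the bridge of mouse 20. Both genes are also fibroblast markers and a large part of the fibroblast sum, so its being highest in the same library is not a separate observation. Timp1, an inhibitor of metalloproteinases, was 178, 193 and 308 against 34.1, 165 and 59.1 CPM and higher in the bridge by ratios of 2.39 and 2.38. Lgals1, galectin 1, was 439, 1837 and 1531 against 162, 1628 and 372 CPM. Vim, vimentin, was 1209.9, 3622 and 1353 against 1381, 3483 and 2978 CPM and Fn1, fibronectin, 2106, 2315 and 4839 against 2661, 2373 and 2709 CPM. Tnc, tenascin C, was 975, 273 and 1363 against 793, 297 and 323 CPM, higher in the bridge of mouse 20 above all. Snai1, the Snail repressor, did not reach the count minimum and was 24.6, 0.87 and 6.89 against 8.57, 0.95 and 1.32 CPM. Of 46 actin and SRF-target genes 27 (58.7%) were higher in mice 18 and 20 alike by any margin and 5 (10.9%) lower. Actb, beta actin, was 9732, 14323 and 13652 against 4923, 13306 and 5817 CPM. Basement membrane genes gave 1 and 2 of 21, proteases and inhibitors 2 and 2 of 35, and epithelial and junction genes 1 and 0 of 16.

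The TGF-beta pathway, a driver of mesenchymal change and collagen synthesis, showed a lean in some of its lists. Tgfb1, its main ligand, was below the count minimum at 0.59, 1.07 and 0.25 against 2.40, 0.6 and 0.56 CPM. The receptors Tgfbr1 (134, 58.5 and 37.99 against 83.4, 68.2 and 20.6 CPM) and Tgfbr2 (453, 357 and 685 against 350.4, 373 and 268 CPM) were higher in the bridge in mice 18 and 20, by at most 1.35 on the log2 scale. Tgfbi, an extracellular TGF-beta-induced protein, was 972, 967 and 295 against 824, 964 and 967 CPM. Of 26 ligands, receptors and latency proteins 0 were over 2-fold higher and 2 lower in both, with medians of -0.11, -0.02 and 0.47. Of 24 SMADs and targets none was past 2-fold in both, but 11 (45.8%) were higher and 4 lower in both by any margin, against 29.9% and 28.2% of all genes, with medians of 0.17, -0.01 and 0.52 (mouse 18 at -0.01 with total counts as the scale). Of the genes the study raised with TGF-beta in cultured rat Schwann cells, 94 were tested under the same symbol, with medians of 0.01, 0.01 and 0.05 (negative in mice 18 and 20 with total counts as the scale) and 1 over 2-fold higher and 7 lower in both; of those lowered there, 23 had medians of -0.32, -0.08 and -0.89, with 0 and 2 past 2-fold and 15 (65.2%) lower in both by any margin.

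Inflammatory genes included several of the genes furthest apart. The share of chemokine and NF-kappaB genes lower in mice 18 and 20 alike was, however, near that of all genes. Cxcl2, a neutrophil chemokine, was 0, 47.3 and 0.25 CPM in the bridge and 14.5, 47.1 and 68.5 CPM in the distal stump, and Cxcl1, its relative, 3.94, 58.5 and 4.79 against 40.03, 58.9 and 75.8 CPM. Ccl3 and Ccl4, macrophage chemokines, were 13.1, 68.7 and 5.97 against 30.97, 60.6 and 22.9 CPM and 9.73, 75.03 and 2.86 against 25.4, 77.03 and 34.9 CPM. Ccl2, a monocyte attractant that injured Schwann cells make, was 83.8, 255 and 51.6 against 127, 269 and 257 CPM, lower in the bridge of mice 18 and 20 by ratios of -0.60 and -2.32. C3, the central complement component, was 24.9, 469.7 and 107 against 367, 472 and 429 CPM and C4b 46.6, 223 and 91.5 against 183, 223 and 337 CPM, again lower in the bridges of mice 18 and 20. Of 28 chemokines and cytokines, 1 were over 2-fold higher and 4 over 2-fold lower in the bridge in mice 18 and 20 alike, the 1 higher being Mif (counts of 1 and 0 under the stricter filter), and of 30 NF-kappaB and inflammation genes 1 and 3. By any margin 5 chemokines and cytokines (17.9%) were higher and 9 (32.1%) lower in both, with medians of -0.12, -0.04 and -0.56. For NF-kappaB and inflammation genes these were 6 (20%) and 9 (30%), with medians of 0.01, -0.04 and -0.51. Among all genes the shares were 29.9% and 28.2%. Interferon-response genes split: Ifit3 was 27.2, 8.43 and 30.01 against 64.1, 12.05 and 98.1 CPM and Trim25 23.5, 87.5 and 32.5 against 48.1, 108 and 159.9 CPM, while Iigp1 was 47.9, 16.9 and 76.5 against 23.8, 16.4 and 3.49 CPM, and over all 37 the counts were 2 higher and 4 lower (0 and 4 with total counts as the scale). B2m, the light chain of MHC class I, was 1998, 1810.4 and 2260.3 against 684, 2057 and 883 CPM and H2-DMb1, of the class II loading complex, 24.5, 87.7 and 23.9 against 70.8, 83.4 and 212 CPM, the former higher and the latter lower in the bridges of mice 18 and 20. Cd74, the class II invariant chain, was 710.2, 1659 and 803 against 883, 1582 and 2432 CPM. Phagocytosis and lysosome genes, the debris-clearing group, had 0 and 1 of 45 past 2-fold in both, with Ctsb, cathepsin B, at 14228, 5704 and 6166 against 10484, 5911 and 10583 CPM.

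Among signalling lists, Wnt and Notch genes had positive medians in mice 18 and 20. Of 24 tested, 3 were over 2-fold higher and 3 over 2-fold lower in the bridge in mice 18 and 20 alike, with medians of 0.39, 0.01 and 1.01. Tcf7l2, a Wnt effector, was 101, 62.9 and 186 against 44.1, 53.4 and 38.5 CPM, Sfrp1, a secreted Wnt inhibitor, 98.5, 94.2 and 111 against 37.4, 95.8 and 22.5 CPM, and the stem cell receptor Lgr5 22.2, 0.78 and 27.5 against 6.76, 1.29 and 0.35 CPM, all 3 higher in the bridge of mice 18 and 20. Axin2, a feedback target of Wnt signalling, was 0.25, 13.1 and 0.67 against 2.69, 13.1 and 12.1 CPM and Sfrp5 59.7, 129.7 and 11.3 against 123, 117 and 103 CPM, both lower there, as was the receptor Fzd8 (0.084, 11.4 and 0.17 against 5.34, 13.6 and 3.07 CPM). Notch2, the most abundant member, was 61.4, 202 and 177 against 45.2, 204 and 67.6 CPM, and Wif1, a Wnt inhibitor, was nearly absent from the bridge of mouse 20 with 157, 69.3 and 0.084 against 102, 72.7 and 299.5 CPM. Gfra1, the GDNF co-receptor, was 193, 221 and 29.2 against 321, 227 and 341 CPM, in a list of 27 ErbB and growth factor receptor genes with 0 over 2-fold higher and 1 lower in both. Its bridge value was below the distal one in mice 18 and 20, as that of Gdnf was, but by -0.73 and -3.55 on the log2 scale. YAP and TEAD genes had 0 and 1 of 18 past 2-fold, the target Ctgf being 171, 89.4 and 229.7 against 138, 93.5 and 83.8 CPM, and endoplasmic reticulum stress and ATF4 genes 2 and 0 of 28, with the chaperone Hspa5 at 1375, 737 and 1788 against 1098, 769 and 1101 CPM.

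The genes furthest apart were those read in one region of mice 18 and 20 and nearly absent from the other, and they were chosen after their values were seen. Of the 25 genes that DESeq2 called without mouse 19, 14 had no read in the bridge of either mouse 18 or mouse 20. Car3, a carbonic anhydrase of fat and muscle, was 0, 23.8 and 0 CPM in the bridge and 25.1, 28.4 and 26.9 CPM in the distal stump, at least 99.7-fold lower in the bridge of mouse 18 and at least 107-fold lower in that of mouse 20. It is 1 of 6 adipocyte markers, whose summed level was 0, 38.9 and 0 CPM in the bridge and 30.04, 43.8 and 30.6 CPM in the distal stump, with all 6 at 0 in the bridge of mice 18 and 20 and 2 to 4 at 0 in the others, and the part of such cells was not tested. Neat1, the long noncoding RNA that builds nuclear paraspeckles (chr19:5824708-5845478, mm9), was 2.35, 249.7 and 1.34 against 269, 242 and 407 CPM. Its 4 values outside mouse 19 thus differ by ratios of -6.84 and -8.24 on the log2 scale, with a DESeq2 adjusted p of 0.022 and an edgeR adjusted p of 1.00 without mouse 19. Zfp36l2, an mRNA-destabilising protein related to Zfp36, was 39.6, 174 and 16.3 against 119.9, 177 and 209 CPM and had the smallest edgeR p without mouse 19 (0.00051 unadjusted, 1.00 adjusted). Usp7, a deubiquitinase, was 16.3, 119.5 and 9.41 against 83.01, 114 and 50.1 CPM and Prkar2b, a regulatory subunit of protein kinase A, 0.42, 24.6 and 0 against 13.9, 29.6 and 27.1 CPM. Gata2, a haematopoietic and endothelial factor, was one of the 2 called higher, at 4.78, 19.8 and 10.00 against 0, 24.5 and 0 CPM, with no read in the distal stump of mice 18 and 20, and the other was Ndufa4l2. In the genes named here the bridge of mouse 19 carried a level like its own distal stump.

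Whether the difference between regions at day 4 departs from that at days 6, 8 and 10 was tested as an interaction in the same fit, with other mice at each day. No gene passed (0 of 10178, 0%, in edgeR; 85 at an unadjusted p under 0.05, and 147 without mouse 19), while DESeq2 called 7 genes. At an unadjusted p under 0.05 the difference between regions gave 578 genes at day 6, 63 at day 8 and 341 at day 10, beside the 86 of day 4. The 5 genes with the smallest interaction p were Dcn, Ccl11, Lbp, Osr2 and Vit. Dcn, the matrix proteoglycan decorin, was 5512, 4845 and 5931 against 5308, 5105 and 5237 CPM at day 4, a fitted log2 difference of 0.06, and its differences at days 6, 8 and 10 were -1.58, -0.98 and -2.15 (interaction 1.63 ± 0.49, unadjusted p 0.0025, adjusted p 1.00, edgeR). Ccl11, eotaxin, had a log2 difference of -0.15 at day 4 against -3.98, -1.83 and -3.44 later, and Lbp, the lipopolysaccharide-binding protein, -0.26 against -2.20, -0.64 and -3.37. The day 4 differences of these 3 genes include mouse 19.

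Gene clusters that the study had formed on pooled day 6 libraries of other mice, numbered here as it numbered them, were then followed at day 4. Clusters 2 and 6, the ones with a positive median difference between bridge and distal stump in the single nerves of day 6, had medians of 0.53, 0.01 and 0.80 and 0.58, -0.04 and 0.65 in mice 18, 19 and 20, so mice 18 and 20 were positive. Over 2-fold higher and lower in both were 12 and 0 of 134 genes of cluster 2 and 10 and 0 of 88 of cluster 6, against 4.73% and 5.8% of all genes. Clusters 1, 3, 4 and 5, negative at day 6, had medians of -0.30, -0.02 and -1.11, of -0.79, 0.00 and -1.38, of -0.46, 0.02 and -2.70 and of -0.59, -0.06 and -0.70. Their counts were 1 and 19 of 161, 0 and 16 of 73, 1 and 6 of 32 and 2 and 51 of 286, in that order of clusters. With total counts as the scale cluster 2 had 6 and 0, and under the stricter filter, with fewer genes, clusters 6, 1, 3, 4 and 5 had 4 and 0, 0 and 6, 0 and 7, 0 and 0 and 1 and 31. Cluster 7, negative at day 6 too, was not of one sign at day 4 (0.46, -0.05 and -2.15; 1 and 2 of 15). Over the 7 pairs of days 6, 8 and 10 the medians of cluster 2 ran from -0.19 to 1.53 and those of cluster 5 from -1.19 to 0.05, the ends nearest or past 0 being those of mouse 26 of day 8. Of the pairs of days 6 and 8, 4 of 6 carried Xist or Y-linked transcripts that did not match between the 2 libraries of a mouse (20 CPM or more), whereas the 3 pairs of day 4 matched. At day 4 16 of 286 genes of cluster 5 were lower at an unadjusted edgeR p under 0.05 without mouse 19 and 0 higher, and none passed the adjusted threshold.

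**Figure D5:**
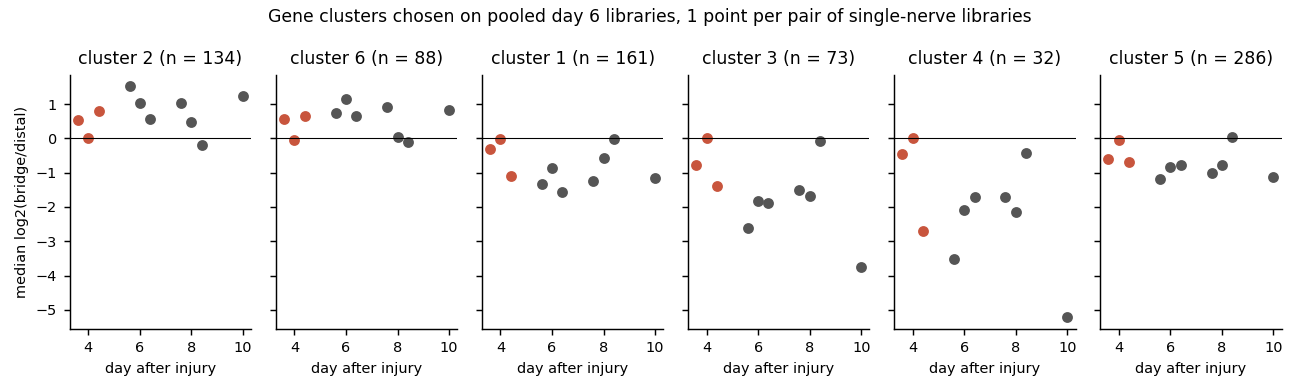
Points give the median log2 ratio of bridge to distal stump over the genes of a cluster (y axis; number of genes tested in brackets), 1 point per pair of single-nerve libraries, at days 4 (red), 6, 8 and 10 (x axis). At day 4 the points of mice 18 and 20 lie on the side of the day 6 points in the 6 clusters drawn, and the point of mouse 19 lies near 0. Cluster 7 is not drawn, and there mice 18 and 20 had medians of opposite sign (0.46 and -2.15).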

How the data were processed

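Libraries were made by the authors from RNA of sorted cells with Smart-seq2 and Nextera XT and sequenced on an Illumina HiSeq. The deposited files hold raw read counts per gene, which the authors made by aligning reads with TopHat 2.0.11 to the mouse genome mm9 and counting with HTSeq. They include ERCC spike-ins and counter lines such as reads without a feature, which were left out here. Of all reads counted, 42.1% to 46.8% per day 4 library were assigned to a gene, giving 10167926 to 18025247 counts. Whether counting used strand is not given in the sources used here, so a gene and an antisense partner cannot be told apart.

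A gene entered the test when 3 or more of the 6 day 4 libraries held 100 or more counts of it. Tests were run in edgeR 4.0.16 (R 4.3.3; quasi-likelihood test, trimmed mean of M values scaling, adjustment by Benjamini-Hochberg over all genes tested) on all 35 single-nerve libraries, 1 coefficient per region and day, in 2 contrasts: bridge against distal stump at day 4, and the interaction of that difference with the mean of days 6, 8 and 10. DESeq2 1.42.0 was an alternative. The scripts were tested on simulated data. Levels are CPM on the same scaling, and the ratio per mouse raised counts under 3 to 3. Standard errors are those of the fitted log2 fold change. Other alternatives were other scalings and filters (among them that of the study's methods, 85% of libraries), the mouse as a block, leaving out each library, and leaving out mouse 19.

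The labels give the same animal to the libraries of a pair, so they pair the samples. Deviations from the group means correlated at 0.42 in mouse 18, 0.67 in mouse 19 and 0.11 in mouse 20, and from -0.52 to 0.22 between unlike mice.

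Named genes were to be the most different called genes, of which there were none, the 2 most abundant members of each list, a fixed set (among them Jun, Ngfr, Gdnf and Shh) and the 5 genes with the smallest interaction p. Others were chosen after their values were seen. The comparison and the gene lists were chosen with earlier results of these data known. The clusters and the rat lists come from the study's supplement. Coordinates are mm9, and promoter sequences are RefSeq windows of GRCm38.p6, matched by symbol for 7735 of the 10178 genes tested. Exonic lengths were found for 93.9% of them. Results for some items are not reported here.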

Additional observations from a re-analysis of the deposited data

Results flagged for a closer look

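In 2 gene lists every pair of day 4 lay on the other side of 0 from every pair of day 6. Mural cell genes had a median over mice of -0.45 at day 4, with -0.45, -0.01 and -0.66 in mice 18, 19 and 20, against 0.40 at day 6, with 0.40, 2.69 and 0.09 in mice 21, 22 and 23. Wnt and Notch genes had a median of 0.39 at day 4, with 0.39, 0.01 and 1.01, against -0.34 at day 6, with -0.34, -0.57 and -0.20. The difference between the days was not tested, and mouse 19 contributed values close to 0 in both lists. The median of the fitted mural log2 fold changes at day 4 was 0.17, of the other sign from the medians per mouse. At day 6 the Xist and Y-linked transcripts (20 CPM or more) matched between the 2 libraries of mouse 23 but not of mice 21 and 22. Whether the ratios of mice 21 and 22 each come from 1 animal is therefore uncertain. With filterByExpr, which keeps genes with fewer reads, the mural median of mouse 18 was 0.02, so the mural pattern did not hold there, and the summed mural level of mouse 18 was 703 CPM in the bridge and 543 CPM in the distal stump. Among mural genes Rgs5 (481, 118 and 131 CPM in the bridge and 261, 131 and 125 CPM in the distal stump) and Cspg4 (50.2, 78.5 and 33.4 against 68.7, 78.1 and 124 CPM) were the most abundant. With 3 libraries a group, no search for outlying libraries within a group was made.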

How the results depend on the processing

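No gene was called between bridge and distal stump by edgeR under any planned setting, and the counts at an unadjusted p under 0.05, 86 as reported, moved with the setting. They were 144 in DESeq2 (0 called), 380 with filterByExpr (15519 genes), 386 with no filter (18452 genes) and 6 to 314 when 1 library was left out. They were 6 without the distal and 19 without the bridge library of mouse 20, 314 and 278 without those of mouse 19, and 254 without the distal library of mouse 18. With the mouse as a replicate block they were 187 in the 6 libraries alone and 175 in the 10 label pairs of days 4 to 10, with 0 called in both. The interaction had 85, and 29 to 176 when 1 library was left out, 404 with filterByExpr, 413 with no filter and 763 with the block, and DESeq2 called 7 genes (4930429F24Rik, A2m, Car3, Cxcl2, Dleu7, Saa1 and Stk32b). Chosen after the data were seen, leaving out mouse 19 gave 25 calls in DESeq2, and 12 for the interaction, against 0 in edgeR for both (277 and 147 at an unadjusted p under 0.05; 701 for the former with the block, 573 in the 4 libraries alone). Genes over 2-fold higher and lower in mice 18 and 20 numbered 481 and 590, and 892 and 951 with filterByExpr, 308 and 256 with the filter of the study's methods, 442 and 616 with DESeq2 size factors, 341 and 770 with total counts as the scale and 479 and 577 with a floor of 10 reads. Of 4069 values for 230 named genes, 104 changed sign, and of 967 values for 54 list medians, 87 did. Counted by gene and by list, 177 of the 230 genes kept their sign under every setting. Only 26 of the 54 list medians did, so the direction of many lists depended on the setting. The causes of these shifts were not tested.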

Other observations

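Some long noncoding RNAs that stay in the nucleus were low in the bridge of mice 18 and 20, and those given here were picked after their values were seen. Neat1 was 2.35, 249.7 and 1.34 CPM in the bridge of mice 18, 19 and 20 and 269, 242 and 407 CPM in the distal stump. Xist, which coats the inactive X chromosome, was 82.3, 211 and 86.2 against 323, 239 and 369.8 CPM. Firre, an X-linked nuclear RNA, was 0, 18.8 and 0 against 36.5, 20.5 and 38.3 CPM, and Kcnq1ot1, an imprinted antisense RNA, 10.6, 29.3 and 11.7 against 23.9, 25.05 and 73.6 CPM. Each was over 2-fold lower in the bridge of mice 18 and 20, which is how they were chosen. Gas5, the host of small nucleolar RNAs, was 12.1, 230.3 and 32.5 against 138, 201 and 153 CPM.

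Malat1, a nuclear RNA of nearly all cells, was 1822.5, 11468 and 1658 CPM in the bridge and 2508, 11415 and 3472 CPM in the distal stump. Both libraries of mouse 19 thus held more of it than any of the other 4 libraries. Meg3, an imprinted noncoding RNA, was 32.9, 207 and 124 against 201, 195 and 202 CPM. The libraries were made from polyadenylated RNA, and what these levels follow was not tested.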
